A study of Mus musculus with 477 samples.

Results

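The hormone-sensing genes described here are *Prlr*, *Esr1*, *Pgr*, *Greb1*, *Cited1*, *Foxa1*, *Tnfsf11* and *Wnt4*, 8 of the 21004 genes in the count table. They were chosen by name as the receptors for prolactin, estrogen and progesterone and the genes known to act with them, and the table held a row for each. The counts came from 477 single cells of 11 mice, captured on Fluidigm C1 chips, which hold 1 cell per chamber and yield full-length cDNA without molecular identifiers. The question for these genes was how their levels, the share of cells that carry them and their co-occurrence in a cell differ between virgin luminal cells, pregnant luminal cells and tumors.

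All mice carried *MMTV-Cre*, a recombinase expressed from the mouse mammary tumor virus promoter, on a mixed C57BL/6 and 129/Sv background. The Br mice had *Brca1* fl/fl, the 53 mice *Trp53* fl/+ and the Br53 mice both, so the luminal mice with wild type *Brca1* (53) still carried the *Trp53* allele. The luminal cells were sorted as DAPI-, CD24Hi, CD29Lo and mGFP+ from mice of 3 to 4 months, the mGFP reporter marking cells in which Cre had acted. The virgin mice were vBrL (35 cells), vBr53L (39) and v53L (40). The mice at day 12.5 of pregnancy were pBrL-1 (71), pBrL-2 (38), pBr53L (53) and p53L (36). The tumor cells were sorted as DAPI- and CD24+ from tumors of about 1 cm, from BrT1 (47), BrT2 (37), Br53T1 (30) and Br53T2 (51). By the mouse IDs in the labels, only the group pBrL held 2 mice, each on its own chip, so a mouse, not a cell, is the replicate below.

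Estrogen and progesterone act on the mammary epithelium through a minority of luminal cells that carry their receptors. These cells answer with secreted factors such as RANKL, WNT4 and amphiregulin, which act on neighbouring cells that lack the receptors. Prolactin signals through its receptor by JAK2 and STAT5 and drives the formation of milk-producing alveoli in pregnancy. *Esr1* encodes estrogen receptor alpha and *Pgr* the progesterone receptor. *Foxa1* encodes a pioneer factor that opens chromatin for estrogen receptor alpha, *Cited1* a transcriptional co-regulator of it, and *Greb1* a classical estrogen target that binds the receptor. *Tnfsf11* encodes RANKL and *Wnt4* a WNT ligand, both induced by progesterone.

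The labelled cell types were checked against their markers. Levels are CPM, the reads of a gene scaled to 1000000 gene reads of the mouse or cell. The 6 luminal markers (*Krt8*, *Krt18*, *Krt19*, *Epcam*, *Cd24a* and *Cdh1*) summed to 8660 to 13700 CPM in the 7 luminal mice, and all 6 had reads in each. The 6 basal markers summed to 0 to 416 CPM there. In the tumors the luminal sum was 846 CPM in BrT1 and 4669.5 to 6578 CPM in the others. BrT1 also had 4955 CPM of 6 fibroblast markers, with 4356 CPM from *Dcn*, a matrix proteoglycan. Br53T2 had 5231 CPM of the basal markers, against 20.8 to 249.8 CPM in the other tumors. Immune markers summed to at most 241 CPM and endothelial markers to at most 13.7 CPM in any mouse. Depth ranged from 40338926 to 115827852 gene reads per mouse and from 170209 to 3550564 reads per cell.

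The genes lie on different chromosomes apart from *Greb1* and *Foxa1*, which are both on chromosome 12 (GRCm38, the assembly also named mm10). *Prlr* spans chromosome 15, 10177238 to 10349180, *Esr1* chromosome 10, 4611593 to 5005614, *Pgr* chromosome 9, 8899833 to 8968611, and *Wnt4* chromosome 4, 137277489 to 137299726, all on the plus strand. *Greb1* spans chromosome 12, 16670615 to 16800886, *Foxa1* chromosome 12, 57540628 to 57546916, *Cited1* chromosome X, 102247381 to 102252181, and *Tnfsf11* chromosome 14, 78277445 to 78308043, all on the minus strand. *Prlr* shares 203 exon bases with the gene model *Gm21973* on its own strand, and *Greb1* shares 736 with the antisense gene *Gm48140*. Reads of these exon bases cannot be told apart between *Prlr* and its partner, nor, since the use of strand in counting was not stated, between *Greb1* and its partner.

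Of the annotated start sites, 14 had a RefSeq window (GRCm38.p6), at least 1 for each gene. The 250 bases before the start are shown for the prolactin and progesterone receptors, for *Cited1* and for *Tnfsf11*, as examples of receptors, a cofactor and a ligand whose levels are followed below. The *Prlr* window belongs to the second of its 3 starts in genome order, chosen because the windows of the other starts held none of the letters searched. Capitals mark every match, on either strand, of GGTCANNNTGACC (the palindromic estrogen response element), GGTCA (each arm of it), TGTTTAC (forkhead core), TTCNNNGAA (STAT site), TGTTCT (progesterone response element core) or AGATAA (core of the site of GATA factors).
Prlr, chr15:10223656-10223905, plus strand: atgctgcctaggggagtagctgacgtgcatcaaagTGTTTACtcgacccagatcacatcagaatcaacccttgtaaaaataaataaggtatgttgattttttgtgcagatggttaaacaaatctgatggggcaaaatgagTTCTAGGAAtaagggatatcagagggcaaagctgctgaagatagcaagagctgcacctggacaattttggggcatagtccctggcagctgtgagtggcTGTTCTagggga
Pgr, chr9:8899583-8899832, plus strand: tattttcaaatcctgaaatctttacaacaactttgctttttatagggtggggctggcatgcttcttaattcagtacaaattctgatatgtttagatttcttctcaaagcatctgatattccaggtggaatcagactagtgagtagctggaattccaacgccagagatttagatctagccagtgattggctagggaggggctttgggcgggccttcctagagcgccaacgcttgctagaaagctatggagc
Cited1, chrX:102252182-102252431, minus strand: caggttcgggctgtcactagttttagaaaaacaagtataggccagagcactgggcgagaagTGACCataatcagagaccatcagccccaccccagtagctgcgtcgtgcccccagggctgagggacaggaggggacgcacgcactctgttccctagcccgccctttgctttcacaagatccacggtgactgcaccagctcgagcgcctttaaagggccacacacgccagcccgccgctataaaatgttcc
Tnfsf11, chr14:78308044-78308293, minus strand: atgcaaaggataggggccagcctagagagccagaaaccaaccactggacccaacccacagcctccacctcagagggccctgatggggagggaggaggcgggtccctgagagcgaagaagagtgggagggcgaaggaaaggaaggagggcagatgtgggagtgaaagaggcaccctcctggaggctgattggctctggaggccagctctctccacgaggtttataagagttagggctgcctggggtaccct
The *Prlr* window held a forkhead core, a STAT site and a TGTTCT, and 1 window of *Esr1*, not shown, also held a STAT site. The *Cited1* window held 1 GGTCA on the strand opposite to the one printed, where it reads TGACC, and the *Pgr* and *Tnfsf11* windows held none of the letters searched. The full palindrome was in 0 of the 14 windows and in 0.0639% of all 32851 RefSeq windows of this length. GGTCA was in 5 of the 14 and in 35.2% of all windows, the forkhead core in 2 of the 14 and in 3.17%, and the STAT site in 2 of the 14 and in 7.02%. TGTTCT was in 1 of the 14 and in 16.1%, and AGATAA in 0 of the 14 and in 9.99%. A match describes letters only, and no binding was measured.

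*Prlr* was the most abundant of the 8 genes per length of exon in 7 of the 11 mice. Levels of different genes are set side by side as CPM per kb of annotated exon. In v53L, *Prlr* had 242 CPM per kb and *Cited1* 227, and *Esr1*, *Foxa1* and *Pgr* had 34.3, 17.5 and 15.6. In vBrL, *Tnfsf11* had 138 CPM per kb, above *Cited1* at 84.4 and *Prlr* at 81.1. In vBr53L the order was *Cited1* at 85.5, *Prlr* at 34.2 and *Esr1* at 3.8. The 3 virgin mice therefore did not share 1 order of the leading genes. In all 4 pregnant mice *Prlr* led, with 10.5 to 14.4 CPM per kb. It was followed in them by *Wnt4* at 7.94 in pBrL-1, *Tnfsf11* at 6.98 in pBrL-2, and *Cited1* at 10.6 in pBr53L and 9.61 in p53L. A single cell held 98.6% of these reads in pBrL-2, 92.6% in pBr53L and 100% in p53L, so these second places rest on 1 cell each. In pBr53L, *Prlr* at 10.9 and *Cited1* at 10.6 differed by less than *Prlr* did between the 2 pBrL mice, at 10.5 and 11.9.

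**Figure D1:**
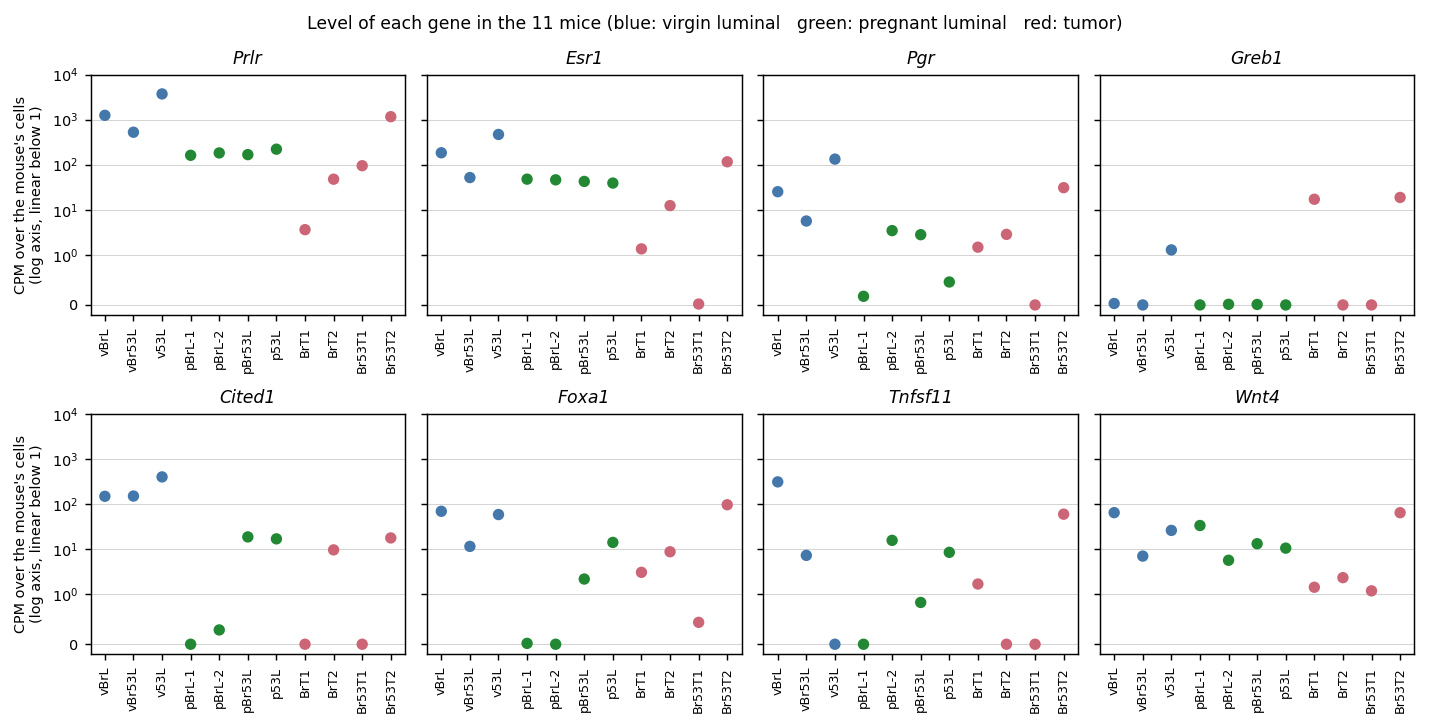
Each panel plots 1 gene and each point 1 mouse, as CPM over all cells of the mouse on a log axis that is linear below 1; blue points are virgin luminal mice, green pregnant luminal mice and red tumors. *Prlr*, *Esr1*, *Pgr* and *Cited1* are higher in the 3 virgin than in the 4 pregnant mice without overlap, and Br53T2 is the highest tumor for every gene, with over 50% of its *Greb1* and *Cited1* reads from 1 cell each.

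The prolactin receptor was compared first. Among virgin mice *Prlr* stood at 3713 CPM for v53L, 1245 for vBrL and 525 for vBr53L. It had 162 CPM in pBrL-1, 182 in pBrL-2, 167 in pBr53L and 221 in p53L. The pregnant mice lay close together, at 183 ± 26.7 CPM (SD, n = 4), the virgin mice were spread over 1827 ± 1672 CPM (SD, n = 3), and the groups did not overlap. In the fit over the 7 luminal mice, with genotype as a covariate, the pregnant minus virgin difference was -2.82 ± 0.42 on the log2 scale (SE), with an edgeR quasi-likelihood adjusted p of 0.139 and rank 15 of 12615 genes by p. The difference was in the same direction within both chips that held both stages. On chip SC9, v53L was 16.8-fold higher than p53L, and on chip SC7, vBr53L was 3.14-fold higher than pBr53L.

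The share of cells with a *Prlr* read overlapped between the stages, unlike the level. Shares of cells were taken after drawing 100000 reads from each cell, with exact 95% binomial intervals that cover counting error only. *Prlr* had a read in 71.4% of the cells of vBrL, 79.5% of vBr53L and 90% of v53L. In the pregnant mice the share was 70.4% in pBrL-1, 81.6% in pBrL-2, 71.7% in pBr53L and 69.4% in p53L. What differed was the number of cells with very high *Prlr*. At least 1000 CPM of *Prlr* was found in 10 of 35 cells of vBrL, 6 of 39 of vBr53L and 25 of 40 of v53L. In pregnant mice it was found in 0 of 71 cells of pBrL-1, 1 of 38 of pBrL-2, 1 of 53 of pBr53L and 1 of 36 of p53L. At 100 CPM and above the stages overlapped, with 48.7% to 70% of the cells in virgin mice and 42.1% to 50.9% in pregnant mice. The highest cell had 12726 CPM in v53L and 877 to 1862.5 CPM in the pregnant mice.

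**Figure D2:**
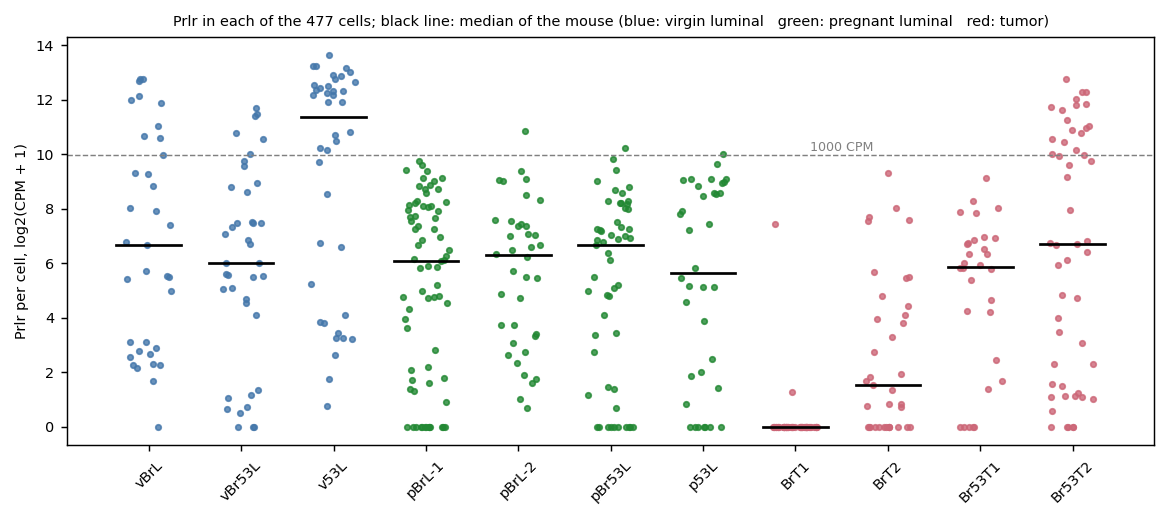
Each point is 1 cell, plotted as log2(CPM + 1) of *Prlr* by mouse, with a black line at the median of the mouse and a dashed line at 1000 CPM; colours are blue for virgin, green for pregnant and red for tumor. Cells above the dashed line are found in numbers in the 3 virgin mice and in Br53T2, and 3 cells of the 4 pregnant mice lie above it.

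The estrogen receptor gene had a smaller fitted difference than *Prlr* by edgeR, and a larger one by limma on mean log2(CPM + 1) (-2.24 against -1.97). *Esr1* stood at 469 CPM for v53L, 184 for vBrL and 51.9 for vBr53L, and at 47.8, 46.2, 42.5 and 39.1 CPM in pBrL-1, pBrL-2, pBr53L and p53L. The virgin vBr53L was only just above the pregnant mice, with 47.6% of its *Esr1* reads in 1 cell. Without the cell of most reads in each mouse, the pregnant mice had 31, 34.3, 23.1 and 4.17 CPM in the same order, so their closeness rested on single cells. The fitted difference was -1.91 ± 0.56 (log2, SE; edgeR adjusted p 0.407), and -1.28 without p53L or without v53L. On chip SC9 the virgin mouse was 12-fold higher than the pregnant mouse, and on chip SC7 1.22-fold. *Esr1* was found in fewer cells than *Prlr*. It had a read in 34.3%, 41% and 67.5% of the cells of vBrL, vBr53L and v53L, and in 14.1%, 28.9%, 15.1% and 13.9% of the cells of pBrL-1, pBrL-2, pBr53L and p53L. Single pregnant cells could have it at a high level: 1 cell of p53L had 2299.6 CPM and held 89.5% of the *Esr1* reads of that mouse.

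By edgeR, *Pgr* and *Cited1* had larger fitted differences between the stages than *Prlr* and *Esr1*, which for *Pgr* was not so by limma (-1.82, against -1.97 for *Prlr* and -2.24 for *Esr1*). *Pgr* stood at 133 CPM for v53L, 25.2 for vBrL and 5.63 for vBr53L, and at 0.173, 3.45, 2.80 and 0.458 CPM in pBrL-1, pBrL-2, pBr53L and p53L. It had a read in 17.1%, 12.8% and 52.5% of the virgin cells and in 1.9% to 5.6% of the cells of a pregnant mouse. *Cited1* stood at 399 CPM for v53L, 148 for vBrL and 150 for vBr53L. It had 0 reads in pBrL-1, 0.286 CPM in pBrL-2, 18.6 in pBr53L and 16.9 in p53L. Its share of cells was 28.6%, 23.1% and 55% in the virgin mice and at most 5.7% in a pregnant mouse, and 0 of the 71 cells of pBrL-1 allows a share of up to 4.23% by a floor of 3 cells (5.1% by the exact interval). Single cells carried much of these levels: 1 cell held all reads of *Cited1* in p53L and 92.6% in pBr53L, and 1 cell held 99.6% of the *Pgr* reads in pBrL-2, 99.6% in pBr53L and 74.4% in vBr53L. The fitted difference was -4.03 ± 1.59 for *Pgr* and -6.54 ± 1.84 for *Cited1* (log2, SE), with edgeR adjusted p of 0.481 and 0.38. These sizes moved with single mice: *Pgr* was at -2.74 without v53L or p53L and at -6.04 without pBrL-2, and *Cited1* at -3.74 without vBrL and at -8.18 without vBr53L. The pBr53L and p53L levels of *Cited1* were 8.06-fold and 23.6-fold below those of the virgin mice on the same chips.

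*Foxa1* and the ligands *Tnfsf11* and *Wnt4* overlapped between the stages. *Foxa1* stood at 58.3 CPM for v53L, 68.9 for vBrL and 11.5 for vBr53L, and at 0.0173, 0, 2.17 and 14.1 CPM in pBrL-1, pBrL-2, pBr53L and p53L. It was lower in every pregnant mouse than in vBrL and v53L, and p53L was above vBr53L. The fitted difference was -6.46 ± 2.84 (log2, SE; edgeR adjusted p 0.531), with -2.18 without vBrL, -3.75 and -3.71 without pBrL-1 and pBrL-2, and -9.58 to -9.79 without any 1 of the other 4 mice. *Wnt4* had 64.3, 6.98 and 25.96 CPM in the virgin mice and 33.3, 5.65, 13.1 and 10.5 CPM in the pregnant mice, with a difference of -0.84 ± 0.86 and an edgeR adjusted p of 0.806. *Wnt4* had a read in 10.5% to 20.8% of the cells of each pregnant mouse, against 0% to 5.3% for *Tnfsf11*. *Greb1* was near 0 in all luminal mice, with 54 reads over the 3 virgin mice and 2 reads over the 4 pregnant mice. It was not tested there, since it did not pass the filter on low counts.

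The RANKL gene differed most between single virgin mice. *Tnfsf11* stood at 309.5 CPM for vBrL, 7.25 for vBr53L and 0 reads for v53L. It had 0 reads in pBrL-1 and 15.6, 0.834 and 8.47 CPM in pBrL-2, pBr53L and p53L. The mouse without a read, v53L, had the highest *Esr1*, *Pgr* and *Prlr* of the luminal mice. In vBrL, 1 cell held 66.1% of the reads, at 3992.5 CPM, and the level without it was 110.7 CPM. *Tnfsf11* had a read in 51.4% of the cells of vBrL at 100000 reads and in 94.3% without thinning. It had a read in 25.6% of the cells of vBr53L, and 0 of the 40 cells of v53L allows a share of up to 7.5% by the floor of 3 cells (8.8% by the exact interval). The pregnant mouse on the same chip as v53L, p53L, had 388 reads of it. Among other secreted factors, *Rspo1* (R-spondin 1, which amplifies WNT signals) also had 0 reads in v53L and 65.8 to 164 CPM in the other luminal mice. *Calca* (calcitonin) had 5.08 CPM in v53L against 1914 in vBrL and 1074 in vBr53L. *Ptn* (pleiotrophin) ran the other way, with 5847 CPM in v53L, 914.5 in vBrL and 631 in vBr53L. With 1 virgin mouse per genotype, genotype and mouse cannot be told apart here.

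**Figure D3:**
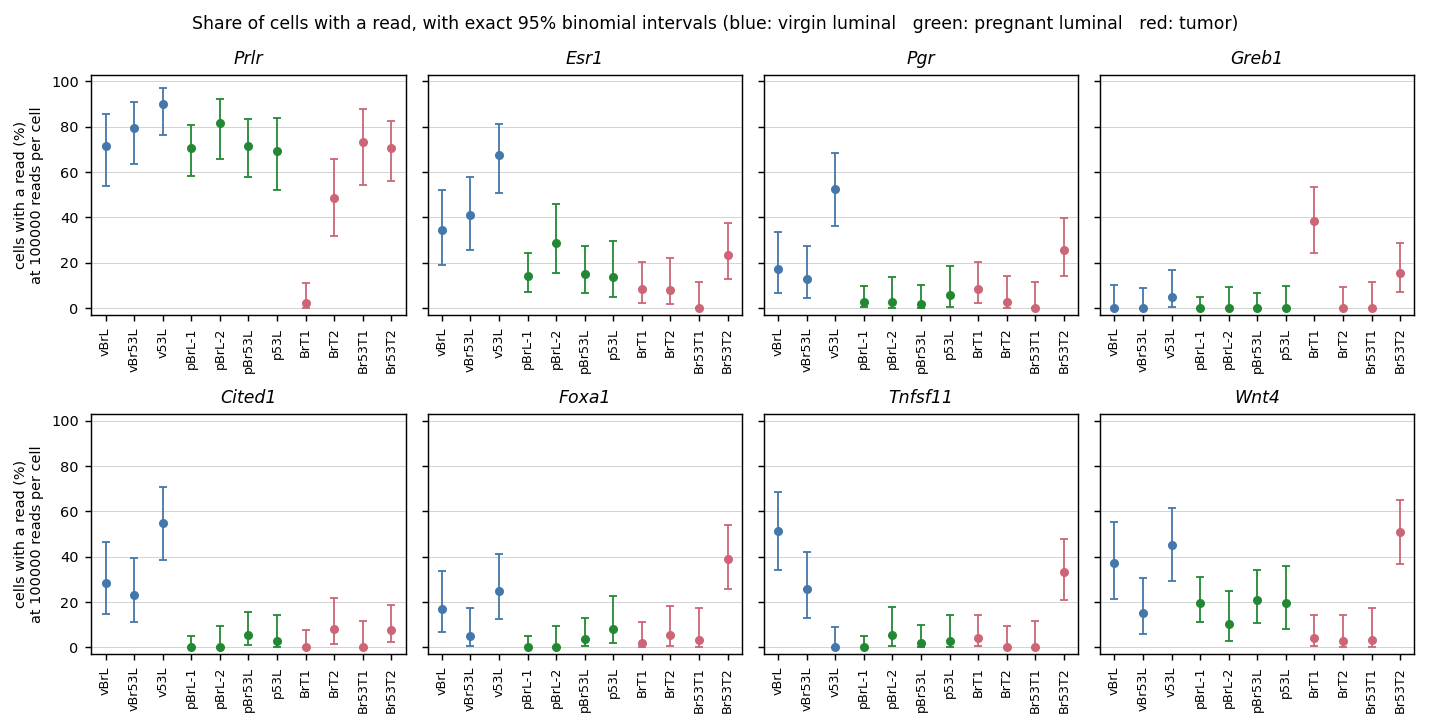
Each panel plots 1 gene as the percentage of cells with a read after drawing 100000 reads per cell, by mouse, with exact 95% binomial intervals as bars; colours are blue for virgin, green for pregnant and red for tumor. *Prlr* keeps a share of 69.4% to 90% in all luminal mice, *Pgr* and *Cited1* do not exceed 5.7% in a pregnant mouse, and *Tnfsf11* is at 0 in v53L.

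Of the 8 genes, 7 passed the filter on low counts, and all 7 differences were below 0 in pregnancy, with a median of -3.23 on the log2 scale beside 0.12 over all genes tested. At an adjusted p under 0.05, edgeR called 0 of the 7, against 2 of 12615 genes, or 0.0159%. Of all genes tested, 1229 had an unadjusted p under 0.05. DESeq2 and limma on the mean log2(CPM + 1) per mouse each called 5 of the 7, namely *Prlr*, *Esr1*, *Pgr*, *Cited1* and *Foxa1*, so the call depended on the test. These tools also called far more of all genes, DESeq2 976 of the 11881 given an adjusted p (8.21%) and limma 580 of 12615 (4.6%). With chip as a block, edgeR called 0 of the 7 and 42 of 12615 genes. This fit compares the stages only within SC7 and SC9 and has fewer residual degrees of freedom than the main fit. *Cited1* was then at -3.70, *Foxa1* at -2.15 and *Tnfsf11* at 2.02 (log2; edgeR adjusted p 0.0538, 0.894 and 1). By levels alone, 4 of the 7 (*Prlr*, *Esr1*, *Pgr* and *Cited1*) were lower in every pregnant mouse than in any virgin mouse, which held for 704 of the 12615 genes, or 5.58%. For *Esr1* and *Pgr* this rested on single cells of vBr53L. In a comparison added after the data were seen, vBr53L without its cell of most reads had 28.3 CPM of *Esr1* and 1.48 CPM of *Pgr*, and both then overlapped with the pregnant mice. With that cell left out in each of the 7 mice, *Esr1* overlapped and *Pgr*, *Prlr* and *Cited1* did not. In sums over the cells of a mouse, fewer cells of a type and less RNA per cell cannot be told apart.

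Other genes of hormone-sensing luminal cells mostly had the same direction. Of 8 further markers, 7 had lower fitted values in pregnancy and edgeR called 0, with a median of -3.49 (log2). *Areg*, which encodes amphiregulin, had 89.7 to 293 CPM in the virgin mice and 0.914 to 22.3 CPM in the pregnant mice (-4.84 ± 0.76, log2, edgeR adjusted p 0.139). *Areg* was named after its values were seen, as were *Cish* and *Tbx3* below. *Wfdc2* had 61.5 to 619.8 CPM in virgin and 8.33 to 48.3 CPM in pregnant mice. *Ly6e*, the most abundant on this list, lay between 3663 and 4264 CPM in virgin mice and between 2627 and 3521 CPM in pregnant mice, again without overlap but by a smaller step (-0.34 ± 0.22, log2, edgeR adjusted p 0.694). *Kcnk1* overlapped between the stages and had the 1 positive value. The progenitor and alveolar list moved with the stage as well: its 12 genes summed to 19681 to 33575 CPM in virgin and 56286 to 81097 CPM in pregnant mice. The fibroblast markers summed to 176 to 712 CPM in virgin mice, nearly all from *Dcn*, and to at most 25.4 CPM in pregnant mice. In the virgin mice *Dcn* lay mainly in cells with at least 4 of the 8 genes, with a mean of 2884, 2628 and 259 CPM in vBrL, vBr53L and v53L against 3.20, 33.4 and 0 CPM in the other cells. *Col1a1*, *Col1a2*, *Col3a1*, *Lum* and *Pdgfra* had means of at most 2.47 CPM in either class. The basal markers summed to 0 to 107.4 CPM in virgin and 95.4 to 416 CPM in pregnant mice. The part of these lists in the lower hormone-sensing levels was not tested.

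The genes of signalling below the receptors were split in direction. Of the 9 genes tested on the prolactin and growth hormone list, 5 had higher and 4 lower fitted values in pregnancy, with a median of 0.16 (log2), and edgeR called 0. *Cish*, a STAT5 target that inhibits cytokine signalling, had 22 to 49.2 CPM in virgin and 72.7 to 207 CPM in pregnant mice, without overlap (1.91 ± 0.51, log2, edgeR adjusted p 0.334). *Elf5*, a transcription factor of alveolar cells, had 5.90 to 170 CPM in virgin and 135 to 1063 CPM in pregnant mice. *Stat5a*, which encodes the main transducer of the prolactin receptor, had 85.2 to 139.7 CPM in virgin and 62.8 to 122.7 CPM in pregnant mice, and the groups overlapped, as they did for *Elf5*. *Socs2*, an inhibitor of this signalling, had 30.7 to 177.6 CPM in virgin and 41.1 to 95.2 CPM in pregnant mice. Of the cofactors of the estrogen receptor and hormone-sensing transcription factors, 7 of 12 had higher and 5 lower fitted values, and edgeR called 0. *Nrip1*, *Gata3* and *Xbp1*, the most abundant of them, overlapped between the stages, and *Tbx3* had 27.8 to 154 CPM in virgin and 1.55 to 6.96 CPM in pregnant mice. Of the other nuclear and membrane receptors, 4 of 9 had higher and 5 lower fitted values, and of the paracrine ligands and their receptors 5 of 13 had higher and 8 lower, with 0 called by edgeR in both.

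The *Brca1* comparison asked whether the 5 *Brca1*-deficient luminal mice differed from the 2 with wild type *Brca1*, with stage as a covariate. Both wild type mice carried the *Trp53* allele, which vBrL, pBrL-1 and pBrL-2 lacked, so those mice differed from them in both genes. The parts of *Brca1* and *Trp53* are not separated in this contrast. Of the 7 genes tested, 6 had lower fitted values in the deficient mice, with a median of -1.50 (log2) beside 0.06 over all genes. *Prlr* differed by -1.50 ± 0.44 and *Esr1* by -1.28 ± 0.60 (log2, SE; edgeR adjusted p 0.776 for both). Without v53L these values were -0.65 and -0.09, without vBr53L -0.99 and -0.58, and without p53L -2.27 and -2.29. edgeR called 0 of these and 0 of 12615 genes (0%), and 759 genes had an unadjusted p under 0.05. DESeq2 called 1 of the 7, *Prlr* (adjusted p 0.0365), among 486 genes, or 3.85%. In the virgin mice, v53L had 2.98-fold the *Prlr* level of vBrL and 7.08-fold that of vBr53L. In the pregnant mice, p53L at 221 CPM was above the *Brca1*-deficient mice at 162 to 182 CPM, a smaller gap than in the virgin mice.

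Whether the pregnancy difference itself differed with *Brca1* status was asked by an interaction term, which was positive for 4 and negative for 3 of the 7 genes tested, with a median of 0.18 (log2) beside -0.04 over all genes. For *Prlr* the interaction was 1.59 ± 0.69, for *Esr1* 2.11 ± 0.94 and for *Pgr* 5.23 ± 2.34 (log2, SE), with edgeR adjusted p of 0.419, 0.426 and 0.428. *Foxa1* was at -3.76 ± 3.70, *Cited1* at -0.05 ± 3.53 and *Wnt4* at 0.18 ± 1.97. A positive value means a less negative pregnancy difference in the *Brca1*-deficient mice. *Tnfsf11*, at 0 reads in v53L, had the opposite sign (-17.37 ± 7.27, edgeR adjusted p 0.407), a value that depends on how a count of 0 is treated. edgeR called 0 of the 7 genes and 45 of 12615 genes, or 0.357%. Among the listed genes outside the 8, it called *Rspo1*, *Thrb* (a thyroid hormone receptor) and *Krt14* with a negative and *Lalba* (alpha-lactalbumin) with a positive interaction. *Rspo1*, *Thrb* and *Krt14* had 0 reads in v53L, the 1 virgin mouse with wild type *Brca1*, so these calls rest on a count of 0 in that mouse. The wild type arm held 1 virgin and 1 pregnant mouse, assumed to vary like the others. Both carried the *Trp53* allele, which the Br mice of the other arm lacked.

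The tumors were then compared with the 5 *Brca1*-deficient luminal mice, as the study compared tumor cells with mutant luminal cells. The tumors were spread widely. In Br53T2 *Prlr* reached 1161 CPM, against 94.9 for Br53T1, 47.7 for BrT2 and 3.62 for BrT1. In the same order *Esr1* had 116, 0.0182, 12.4 and 1.36 CPM, and *Pgr* had 30.9, 0, 2.84 and 1.48 CPM. Br53T2 was the highest tumor for each of these receptors, and reached the range of virgin luminal mice. BrT1, BrT2 and Br53T1 were below every luminal mouse for *Prlr* and *Esr1*. In BrT1, *Prlr* had a read in 1 of 47 cells (2.1%), whereas BrT2 had it in 48.6%, Br53T1 in 73.3% and Br53T2 in 70.6%. *Esr1* had a read in 8.5%, 8.1%, 0% and 23.5% of the cells of BrT1, BrT2, Br53T1 and Br53T2. In BrT2, 1 cell held 95.3% of the *Esr1* reads, and a different cell held all *Pgr* reads.

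The partners of the receptors followed Br53T2 too. *Foxa1* had 3.05, 8.72, 0.437 and 96.2 CPM in BrT1, BrT2, Br53T1 and Br53T2, and *Wnt4* 1.42, 2.32, 1.18 and 64.1 CPM. In the 3 lower tumors these levels came mostly from 1 cell per gene, and not the same cell for both genes. The top cell held 99.6%, 98.4% and 54.2% of the *Foxa1* reads there, against 34.4% in Br53T2. For *Wnt4* it held 85.3%, 100% and 100% of the reads, against 16.5% in Br53T2. *Tnfsf11* had 1.68 CPM in BrT1, 0 reads in BrT2 and Br53T1, and 59.4 CPM in Br53T2. *Cited1* had 0, 9.60, 0 and 17.7 CPM (55.6% of the last from 1 cell), well under the 148 to 399 CPM of virgin luminal mice also in Br53T2. In Br53T2 a read was found in 51.0% of cells for *Wnt4*, 39.2% for *Foxa1*, 33.3% for *Tnfsf11* and 25.5% for *Pgr*, but in 7.8% for *Cited1*. The *Foxa1* share lay above the 5.1% to 25% of the virgin luminal mice, though its interval of 25.8% to 53.9% overlapped that of v53L, 12.7% to 41.2%. On chip SC6, which Br53T2 shared with pBrL-2, the tumor was 6.37-fold higher for *Prlr* and 2.51-fold for *Esr1*, and it had 8741 reads of *Foxa1*, of which pBrL-2 had 0.

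*Greb1* was about as high in BrT1 as in Br53T2. It had 17.1 CPM in BrT1 and 18.8 in Br53T2, where 1 cell held 54.9% of the reads, 0 reads in BrT2 and Br53T1, and at most 1.29 CPM in a luminal mouse. These counts may include the antisense gene named above. BrT1 had it in 38.3% of cells and Br53T2 in 15.7%, and v53L in 5.0%. BrT1 thus combined the most frequent *Greb1* with 1 cell that had a *Prlr* read at 100000 reads, which held 99.1% of its *Prlr* reads, and with the 4955 CPM of fibroblast markers given above. The levels per cell differed as well: the cells with a read had a median of 32.5 CPM in BrT1 and 23.1 in Br53T2, and the highest cell had 134 CPM in BrT1 and 454 CPM in Br53T2. In BrT1, *Esr1* had 1.36 CPM and *Foxa1* 3.05 CPM.

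In the tumor fit, 5 of the 7 genes tested had lower and 2 higher fitted values than the *Brca1*-deficient luminal mice, with a median of -0.68 (log2) beside 0.06 over all genes. *Cited1* differed by -3.33 ± 2.42 (log2, SE; edgeR adjusted p 0.591), and by -0.53 with limma on mean log2(CPM + 1). *Prlr* differed by -0.65 ± 1.21 and *Esr1* by -1.35 ± 1.41, with edgeR adjusted p of 0.868 and 0.728. The size for *Prlr* depended on the fit, at -2.19 with limma (adjusted p 0.205), -1.95 with genotype as a covariate and -1.71 with all 7 luminal mice. edgeR called 0 of the 7 and 79 of 12978 genes, or 0.609%, and 1788 genes had an unadjusted p under 0.05. Of the listed genes outside the 8, it called *Cd36* (a fatty acid transporter) and *Fabp3* (a fatty acid binding protein) of the 12 progenitor and alveolar genes, both lower in tumors. *Cd36* had 7.31 to 1763 CPM in the 5 luminal mice and at most 0.0773 CPM in a tumor, and *Fabp3* 1.07 to 766.5 CPM and at most 0.661 CPM. By levels alone, 0 of the 7 were lower in every tumor than in any of these luminal mice, a pattern that 326 genes, or 2.51%, showed. Without Br53T2 all 7 values were below 0, with *Prlr* at -3.34 and *Esr1* at -4.02 (edgeR adjusted p 0.198 and 0.242), and *Pgr* and *Foxa1* at -2.41 and -2.05 in place of 0.09 and 0.57. Without vBrL, *Prlr* (0.15), *Pgr* (1.38), *Foxa1* (2.79), *Tnfsf11* (1.22) and *Wnt4* (0.05) were above 0, and *Esr1* (-0.70) and *Cited1* (-2.77) below it.

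The 2 Br53 tumors had higher fitted values than the 2 Br tumors for 8 of 8 genes, with a median of 2.92 (log2) beside -0.0013 over all genes. edgeR called 0 of the 8 and 0 of 13477 genes (0%), with 537 at an unadjusted p under 0.05. *Prlr* differed by 4.45 ± 1.73 (log2, SE; edgeR adjusted p 1). This rested on Br53T2: without it, *Esr1*, *Pgr*, *Greb1*, *Cited1*, *Foxa1*, *Tnfsf11* and *Wnt4* were lower in the remaining Br53 tumor.

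Co-occurrence within a cell was examined next. The number of the 8 genes with a read in a cell, at 100000 reads, averaged 2.57 in vBrL, 2.03 in vBr53L and 3.40 in v53L. It averaged 1.07 to 1.29 in the pregnant mice, 0.68 to 0.80 in BrT1, BrT2 and Br53T1, and 2.67 in Br53T2. Cells with at least 4 of the 8 genes made up 9 of 35 cells of vBrL, 6 of 39 of vBr53L and 24 of 40 of v53L. They made up 16 of 51 cells of Br53T2 and 0 cells of the other tumors. In pregnant mice there were 0 of 71, 1 of 38, 1 of 53 and 2 of 36 such cells in pBrL-1, pBrL-2, pBr53L and p53L. A cut at 4 is a range on a count, and 3 to 15 cells of each of the 3 virgin mice and Br53T2 had exactly 3 or 4 genes. The Spearman correlation of this number with the reads of a cell was -0.146 to 0.169 in the virgin mice and 0.092 in Br53T2. With the genes detected in a cell it was 0.267 to 0.629 in the virgin mice.

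**Figure D4:**
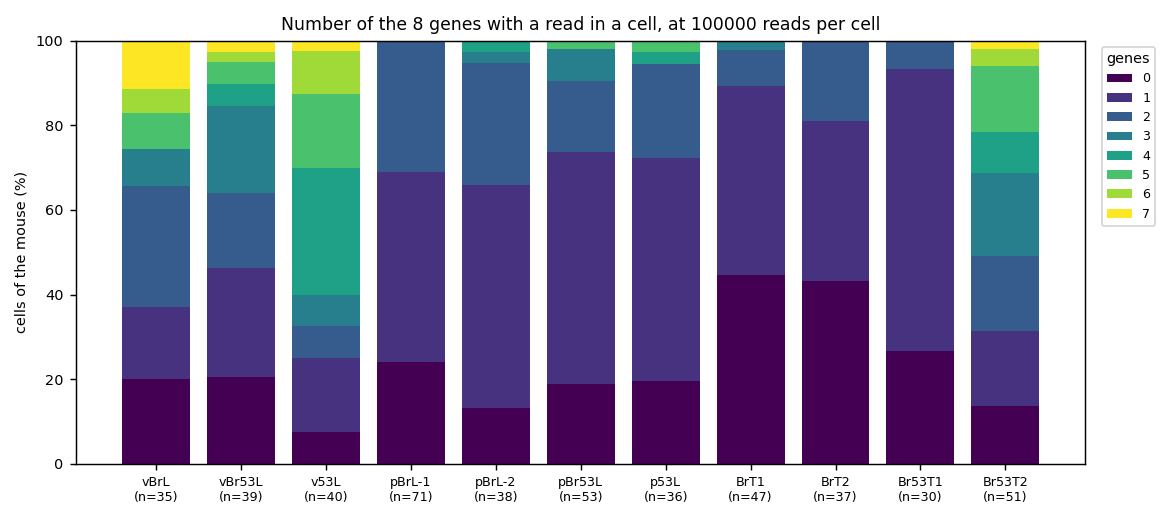
Each bar is 1 mouse, split by the percentage of its cells in which 0 to 7 of the 8 genes had a read at 100000 reads per cell (n is the number of cells). Cells with 4 or more genes make up 15.4% to 60% of the virgin luminal cells and 31.4% of Br53T2, and at most 5.6% in the other mice.

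Virgin cells with *Pgr* mostly had the other receptors. Of the cells with *Pgr*, *Prlr* was also found in 6 of 6 in vBrL, 5 of 5 in vBr53L and 21 of 21 in v53L. *Prlr* was frequent without *Pgr* too, in 19 of 29, 26 of 34 and 15 of 19 cells. *Esr1* was found in 6 of 6, 3 of 5 and 18 of 21 cells with *Pgr*, and in 6 of 29, 13 of 34 and 9 of 19 cells without it. *Cited1* was found with *Pgr* in 5 of 6, 5 of 5 and 19 of 21 cells, against 5 of 29, 4 of 34 and 3 of 19 cells without *Pgr*. In vBrL, *Tnfsf11* was found in 6 of 6 cells with *Pgr*, and also in 12 of 29 cells without it. In Br53T2, *Prlr* was found in 10 of 13 cells with *Pgr* and 26 of 38 without it, and with *Pgr*, *Esr1* was found in 5 of 13 and *Cited1* in 2 of 13. *Tnfsf11* in Br53T2 was found in 17 cells, and *Prlr* in 17 of these 17.

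Across the cells of a mouse, the levels of the genes were correlated in pairs, over pairs in which both genes had a read in at least 5 cells. The points of a mouse share its library preparation, chip and range of depth, and the values are descriptions. The share of positive pairs among other genes was not computed. In vBrL, 21 of 21 pairs had a positive Spearman correlation of CPM over 35 cells, with a median of 0.603. The median was 0.307 over 15 pairs in the 39 cells of vBr53L and 0.505 over 15 pairs in the 40 cells of v53L, with 15 of 15 pairs positive in both. The pair of *Pgr* and *Tnfsf11* was highest in vBrL at 0.779, *Esr1* and *Tnfsf11* in vBr53L at 0.832, and *Prlr* and *Pgr* in v53L at 0.742. In the pregnant mice only 1 to 3 pairs per mouse could be taken, with correlations of -0.15 to 0.26. *Prlr* and *Esr1* correlated at 0.649, 0.588 and 0.601 in the virgin mice. In Br53T2, 20 of 21 pairs were positive over 51 cells, with a median of 0.291, and *Prlr* and *Foxa1* were highest at 0.639. BrT1, BrT2 and Br53T1 had no pair that could be taken.

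**Figure D5:**
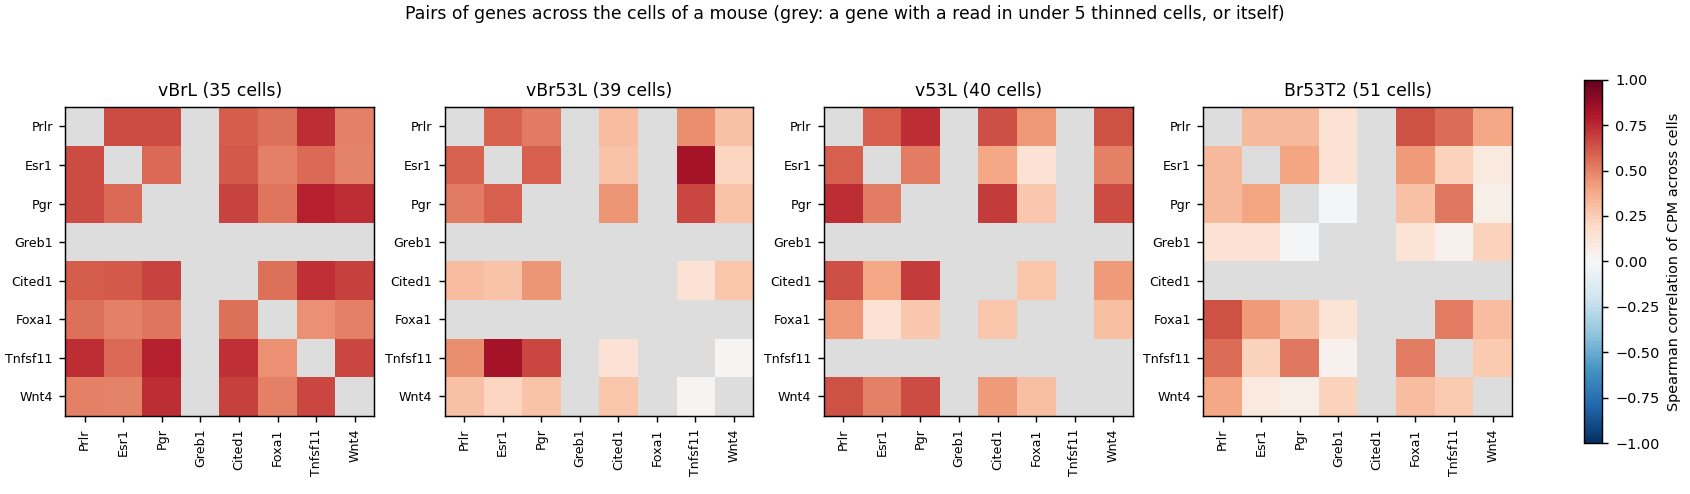
Each square is the Spearman correlation of CPM between 2 genes across the cells of 1 mouse (colour scale from -1 to 1), for the 3 virgin luminal mice and Br53T2; grey marks the gene itself or a gene with a read in under 5 cells. Nearly all squares are positive, with medians of 0.603, 0.307, 0.505 and 0.291 from left to right.

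The cells with at least 4 of the 8 genes were compared with the other cells of the same mouse in genes that did not define them. In v53L the progenitor and alveolar genes summed to a median of 196 CPM in the 24 cells and 75566 CPM in the other 16. In vBrL the medians were 881 CPM in the 9 cells and 18943 CPM in the other 26. In vBr53L they were 8363 CPM in the 6 cells and 21652 CPM in the other 33. The luminal keratin *Krt18* had a read in every cell of both classes in the 3 virgin mice, so both were luminal by this marker. *Areg* had a median of 350, 506 and 288 CPM in these cells of vBrL, vBr53L and v53L and 1.33, 2.26 and 0 CPM in the others. On the same marker list, *Ly6a*, *Tph1*, *Wfdc2* and *Cxcl15* also had higher medians in these cells of all 3 mice, and *Prom1* in vBrL and v53L. *Kcnk1* ran the other way, with medians of 28.3, 100.2 and 102.9 CPM against 85.8, 171 and 150.7 CPM. *Ly6e* was split, with 3836, 4117 and 3056 CPM against 3277, 4123 and 3894 CPM. *Ptn* had medians of 4116, 2779 and 8956 CPM against 1.45, 6.30 and 4.81 CPM. Detected genes per cell were higher in the cells with at least 4 of the 8, with medians of 5541 against 4304 in vBrL and 4118 against 2861 in v53L, and the part of this in the differences was not tested.

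In Br53T2 the progenitor and alveolar genes again summed to less in these cells, with a median of 221 CPM in the 16 cells and 1457 CPM in the other 35, but basal genes were present as well. The basal markers summed to a median of 570 CPM in the 16 cells and 2242 CPM in the others. Of the 6 basal markers, 4 had a read in a smaller share of the 16 cells than of the others: *Krt14* in 56.2% and 80%, *Krt5* in 37.5% and 54.3%, *Acta2* in 50% and 65.7%, and *Oxtr* in 12.5% and 20%. *Krt17*, a basal keratin, had a read in 81.2% and 74.3%, and *Myh11* in 43.8% and 34.3%. *Areg* had a read in 87.5% and 45.7%, with medians of 747 and 2.5 CPM, and *Stat5a* in 93.8% and 42.9%. *Ptn*, which marked the virgin cells with at least 4 of the 8, had a read in 62.5% and 57.1%. Cells of this tumor with at least 4 of the 8 genes thus also had reads of basal genes, at a lower median sum than the other cells. The corresponding cells of the 3 virgin mice had 0 cells with a read of *Krt5*, *Krt14*, *Krt17* or *Acta2* at 100000 reads.

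The genes most like each receptor across cells were found by the median Spearman correlation over mice. For *Pgr*, over the 3 virgin mice and 4750 candidate genes, they were *Cdo1* (0.744), *Phyh* (0.738) and *Gpx3* (0.730), and *Cited1* had rank 8 and *Prlr* rank 10. For *Cited1* they were *Mtmr7* (0.706), *Ptn* (0.685) and *Pgr* (0.672). *Cdo1* encodes a cysteine dioxygenase and *Gpx3* a secreted glutathione peroxidase. The values were smaller where pregnant mice entered. For *Prlr*, over all 7 luminal mice and 4417 candidates, they were *Rev3l* (0.516), *Dst* (0.476) and *Lifr* (0.427), the receptor for leukemia inhibitory factor, and for *Esr1* they were *Med31* (0.392), *Acot2* (0.381) and *Nek7* (0.381). The correlation was below 0 in at least 1 mouse for *Rev3l*, *Dst*, *Med31*, *Acot2* and *Nek7*, down to -0.249 for *Nek7*. For *Wnt4*, over 6 luminal mice, the highest value was 0.284, for *Becn1*, and *Prlr* had rank 5 at 0.278. *Esr1* had rank 2398 of 4525 for *Wnt4* (0.0322), 172 for *Prlr*, 95 for *Cited1* and 30 for *Pgr*, and *Prlr* had rank 93 for *Esr1*. Over tumors, *Prlr* could be compared in BrT2, Br53T1 and Br53T2, and the third most alike of 6555 genes was *Socs2*, which encodes an inhibitor of prolactin receptor signalling, with 0.460 and a range of 0.352 to 0.782. It followed *Vps35* (0.518) and *Psmd14*, whose correlations were negative in 1 tumor each. For *Esr1* in tumors they were *Atp6v1g1* (0.417, with -0.207 in 1 tumor), *Bace1* (0.398) and *Mtmr3* (0.389).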

How the data were processed

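Per the labels and the study's methods, the authors trimmed reads with sickle and Trim Galore 0.4.1, aligned them to mm10 with STAR 2.5.3a and counted them with Subread 1.5.3. The annotation and the use of strand are not given in the sources used here. The deposited values are raw counts per gene and cell. Without molecular identifiers, reads are not independent molecules.

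Each cell was assigned to its mouse by the labels, and counts were summed over the cells of a mouse. CPM is reads scaled to 1000000 gene reads of that mouse or cell. Sums were tested with edgeR 4.0.16 (quasi-likelihood, TMM, filterByExpr, Benjamini-Hochberg adjustment over all genes tested, called under 0.05) in R 4.3.3, with DESeq2 1.42.0 and limma 3.58.1 as alternatives. Residual degrees of freedom were 7 for the tumor fit, 3 for the luminal fits and 2 between tumors. Each tumor and luminal preparation came from its own mouse, and p-values measure the spread between these mice. Shares of cells were taken after thinning to 100000 reads per cell, which left out 0 of 477 cells, with exact (Clopper-Pearson) 95% intervals and a floor of 3 reads or cells for a count of 0. Doublets had been looked for by microscope before lysis, and no caller was run. Scripts were tested on simulated data.

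The 8 genes and all lists were chosen with earlier results of these data known. Besides the 8, listed genes were named if called, or else the 3 of largest mean CPM in a list, with the 3 genes most alike in pattern. Gene positions come from GENCODE (GRCm38) and promoter windows from RefSeq (GRCm38.p6).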

Additional observations from a re-analysis of the deposited data

Results flagged for a closer look

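Each gene's level was examined for a mouse far from the rest of its group by Dixon's ratio at the 95% level, in groups of 4 to 10 mice. Of 32 tests, 17 stood out. The nominal rate is about 1 in 20 groups, but by the same ratio 29.5% to 39% of all genes with unequal levels stood out in these 4 groups of mice. The tests share mice and genes and are not independent.

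Br53T2 stood apart from the other 3 tumors for 6 of the 8 genes: *Prlr* (1161 CPM), *Esr1* (115.9), *Pgr* (30.9), *Foxa1* (96.2), *Tnfsf11* (59.4) and *Wnt4* (64.1). It stood apart as the highest tumor for 10.1% of 17640 genes. Basal markers summed to 5231 CPM in the same tumor, and their part in these levels was not tested.

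Among the 7 luminal mice, v53L stood apart for *Prlr* (3712.7 CPM), *Esr1* (468.7), *Pgr* (132.9), *Greb1* (1.29) and *Cited1* (398.8), and vBrL for *Tnfsf11* (309.5), as they did for 6.13% and 4.85% of 18426 genes. Among the 5 *Brca1*-deficient luminal mice, vBrL stood apart for *Esr1* (183.9 CPM), *Pgr* (25.2), *Foxa1* (68.9) and *Tnfsf11* (309.5), and for 5.84% of 17990 genes. A single cell held 75.4% of the *Foxa1* reads of vBrL and 61.3% of its *Pgr* reads. Among the 4 pregnant mice, p53L stood apart for *Foxa1* (14.05 CPM), of which 63.5% came from a single cell, and for 3.72% of 17753 genes.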

How the results depend on the processing

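Of 493 recomputed differences of the 8 genes, 426 kept their direction and did not cross the threshold, 19 passed the threshold only in the alternative and 48 changed direction. The 426 include values to which DESeq2 gave no adjusted p, as for *Esr1*, *Foxa1* and *Tnfsf11* in the tumor fit. The cause of the changes was not tested. By replicate number no paired analysis was possible because these numbers name cells. Mice of both stages share 2 chips, and the fit with chip as a block stands below.

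In pregnancy, edgeR called 2 genes, DESeq2 976, edgeR without a filter on low counts 366, limma on mean log values 580, no covariate 17 and chip as a block 42, and leaving out single mice gave 0 to 4. Of the 8 genes, DESeq2, no filter and limma called 5 each. The 4 genes without overlap between the stages became 2 without the cell of most reads in vBr53L, and 3 without that cell in each mouse, alternatives added after the data were seen. In tumors, edgeR called 79, library size only 124, DESeq2 808, no filter 129, limma 575, all 7 luminal mice 213, virgin mice only 0 and pregnant mice only 44, with 11 to 94 without single mice. For *Brca1*, edgeR called 0% of the genes tested, DESeq2 3.85% (486 genes), no filter 0.575% (45 higher and 61 lower) and limma 0.00793% (1 gene), with 0% to 0.137% without single mice, and DESeq2 and no filter called 1 of the 8 (*Prlr*). For the interaction, edgeR called 45, DESeq2 1073, no filter 229 and limma 8, with 0 to 150 without single mice, and no filter called 1 of the 8 (*Tnfsf11*). Between tumors, edgeR called 0, DESeq2 315 and no filter 295, with 0 to 228 without single mice, and no filter called 1 of the 8 (*Prlr*).

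Directions turned in the tumor fit for *Pgr* with all 7 luminal mice (-1.73), virgin mice only (-0.98) and genotype as a covariate (-0.36), for *Foxa1* with virgin mice only (-0.74), and for *Prlr* (0.77) and *Tnfsf11* (1.35) with pregnant mice only. They turned in pregnancy for *Tnfsf11* with chip as a block (2.02). For *Brca1* they turned between Br53 and 53 mice only for *Tnfsf11* (2.66) and *Wnt4* (-0.91), and with limma for *Tnfsf11* (1.05) and *Wnt4* (-0.59). For the interaction they turned for *Cited1* with library size only (0.0034) and limma (2.83) and for *Foxa1* with limma (0.50), and between tumors for *Greb1* with limma (-0.79).

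Leaving out single mice turned these directions. In the tumor fit, values without single mice ran from -3.34 to 0.15 for *Prlr*, -2.41 to 1.38 for *Pgr*, -2.05 to 2.79 for *Foxa1*, -7.05 to 1.22 for *Tnfsf11* and -3.99 to 0.05 for *Wnt4*. In pregnancy, values without single mice ran from -4.47 to 2.91 for *Tnfsf11*; the sizes for *Pgr*, *Cited1* and *Foxa1* moved as given above. For *Brca1* deficiency, values without single mice ran from -3.34 to 1.99 for *Pgr*, -8.39 to 1.45 for *Foxa1*, -2.05 to 15 for *Tnfsf11* and -0.64 to 0.60 for *Wnt4*. For the interaction, values without single mice ran from -5.70 to 0.57 for *Cited1* and -0.67 to 2.52 for *Wnt4*. Between tumors, values without single mice ran from -8.56 to 5.42 for *Esr1*, -10.21 to 3.71 for *Pgr*, -12.07 to 12.21 for *Greb1*, -11.42 to 12.44 for *Cited1*, -3.86 to 3.99 for *Foxa1*, -8.73 to 13.87 for *Tnfsf11* and -0.76 to 4.98 for *Wnt4*.

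Shares of cells moved beyond their interval in 3 of 88 cases at 50000 reads, 28 without thinning and 27 at a minimum of 5 reads. The median correlations of the 4 mice, recomputed on reads after thinning and on log values, moved by no more than the SD of the 3 virgin mice in 8 of 8 cases.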
